A study of Mus musculus with 11 samples.

Results

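The genes of mouse chromosome 8 were followed in embryonic stem (ES) cells of the E14 line, in cultures carrying a BRE reporter transgene and in the parental culture without one. A row of the authors' gene tables was a member if it lay on chromosome 8 and had at least 5 FPKM (fragments per kilobase of transcript, scaled to the mapped fragments of the library) in each of the 4 ES tables. This rule kept 414 of the 1117 chromosome 8 rows. By the same minimum, 6253 rows of the 18 other autosomes and 199 rows of the X chromosome were kept, out of 23847 rows in all. The members were chosen by their level in these 4 libraries, and chromosome 8 was picked for the same ratios that are described here. For that reason the ratio of the chromosome to the other autosomes is given as a description, with no test.

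The study sequenced total RNA of 3 mouse cell lines in 11 libraries. The ES reporter group holds 2 cultures, replicates 1 and 2, of which culture 1 was sequenced in 2 technical runs that were averaged and counted as 1 replicate. The ES parental group holds 1 culture with no transgene. Both are of the 129/Ola strain and were grown on gelatin in serum medium that maintains pluripotency. Cultures of NMuMG, a mammary epithelial line of the NAMRU strain, served as a comparison the rule did not use, with 2 reporter cultures carrying a BRE reporter and 2 parental cultures with no transgene. BRE stands for the BMP response element, a promoter sequence that drives a reporter when BMP signalling activates SMAD proteins. The labels do not say whether a reporter line is a single clone. ES values are listed below in the order reporter culture 1 run 1, reporter culture 1 run 2, reporter culture 2, then parental culture.

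Mouse ES cells in long culture can gain whole chromosomes, and trisomy of chromosome 8 is among the gains best known in this cell type. Cells with the gain can outgrow their neighbours in the dish and contribute poorly to the germ line of chimaeras. RNA from genes on a gained chromosome generally follows gene dosage, which shows as a small shift of the same sign in many genes that are otherwise unrelated. DNA copy number was not measured in these samples, and RNA tables cannot tell a gain in every cell from one in some of the cells.

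Promoters of 3 unrelated members are shown to place the chromosome's genes before their values, 1 from the proximal stretch, 1 from the middle-proximal stretch with the pluripotency gene Zfp42, and 1 from near the distal end. They were chosen after the values were seen. Each runs from 250 bases before to 50 after the gene's start in RefSeq (build GRCm38.p6), written 5′ to 3′ on the gene's own strand, with every CG dinucleotide in capitals. The RefSeq table matched 288 of the 414 members by symbol.
Cdc16, chr8:13757406-13757705, + strand: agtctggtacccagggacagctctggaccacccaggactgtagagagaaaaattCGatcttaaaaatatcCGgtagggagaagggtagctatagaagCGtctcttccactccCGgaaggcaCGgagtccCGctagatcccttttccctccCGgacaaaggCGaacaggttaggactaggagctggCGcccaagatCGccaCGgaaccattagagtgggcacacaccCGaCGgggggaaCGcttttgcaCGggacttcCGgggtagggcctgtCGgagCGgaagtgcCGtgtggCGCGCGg
Zfp42, chr8:43306960-43307259, − strand: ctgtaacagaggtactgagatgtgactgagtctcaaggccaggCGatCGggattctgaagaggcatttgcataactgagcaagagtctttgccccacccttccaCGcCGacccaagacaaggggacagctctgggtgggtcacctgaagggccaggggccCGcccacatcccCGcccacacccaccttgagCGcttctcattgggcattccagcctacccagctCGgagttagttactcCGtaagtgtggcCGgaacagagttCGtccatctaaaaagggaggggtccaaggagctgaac
Rpl13, chr8:123102100-123102399, + strand: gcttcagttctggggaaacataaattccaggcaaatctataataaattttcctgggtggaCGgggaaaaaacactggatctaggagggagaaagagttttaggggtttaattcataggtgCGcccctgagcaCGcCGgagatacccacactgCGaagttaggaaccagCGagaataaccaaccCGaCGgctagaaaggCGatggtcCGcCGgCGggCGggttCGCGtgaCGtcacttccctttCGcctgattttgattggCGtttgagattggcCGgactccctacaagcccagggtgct
The windows hold 22 CG dinucleotides for Cdc16, 11 for Zfp42 and 19 for Rpl13, against a median of 7 over the 32851 promoters of that length in the table. The 25th and 75th percentiles of those promoters were 3 and 20, so only Cdc16 lay above the 75th. The octamer ATTTGCAT, the recognition sequence of POU factors such as Pou5f1, was searched on both strands. It starts at base 65 of the Zfp42 window, is not in the other two, and occurs in 1.74% of all promoters in the table. All 3 genes had more RNA in both reporter cultures. Cdc16, a subunit of the anaphase-promoting complex, had 44.1, 42.2 and 56.1 FPKM in reporter libraries, against 29.5 FPKM in the parental library. Zfp42, also called Rex1, had 525, 546 and 696 FPKM in reporter libraries, against 296 FPKM in the parental library. Rpl13, a protein of the large ribosomal subunit, had 736, 778 and 749 FPKM in reporter libraries, against 515 FPKM in the parental library. More RNA in both reporter cultures was also found for 69.6% of all members, against 28.5% of rows on the other autosomes. The 3 genes, chosen by their values, are illustrations only.

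Chromosome 8 stood apart from every other autosome in both reporter cultures. The median log2 ratio of reporter to parental FPKM was 0.32 over the 414 members in reporter culture 1, against -0.05 over the other autosomes. In reporter culture 2 the median was 0.31 on chromosome 8, against -0.01 on the other autosomes. The offset of chromosome 8 was therefore 0.37 in culture 1, a factor of 1.30, and 0.32 in culture 2, a factor of 1.25, with a mean of 0.35 ± 0.04 (SD, n = 2). A change of 1 copy added to 2 would be 0.58 on this scale if RNA followed dosage exactly in every cell, and both offsets lay below that value. The medians of the 18 other autosomes ran from -0.10 on chromosome 19 to 0.03 on chromosome 13 in culture 1, and from -0.05 on chromosome 10 to 0.03 on chromosome 6 in culture 2. The X chromosome had medians of -0.03 and -0.09.

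**Figure D1:**
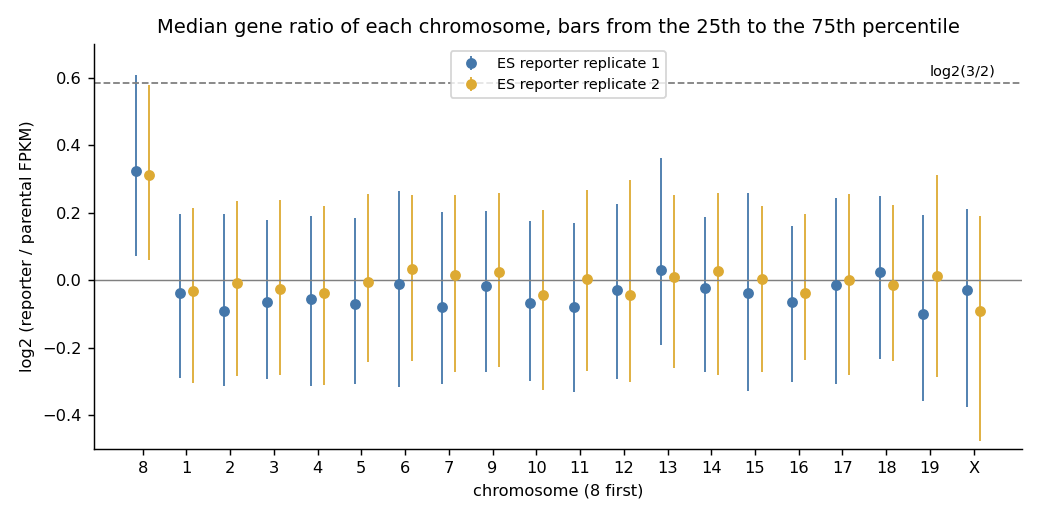
Median log2 ratio of reporter to parental FPKM for the genes of each chromosome (x axis, chromosome 8 first) in reporter culture 1 (blue) and culture 2 (yellow), with bars from the 25th to the 75th percentile of genes. Chromosome 8 has medians of 0.32 and 0.31 and the 18 other autosomes lie between -0.10 and 0.03.

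Both offsets use the same single parental library, so they are not independent of each other, and the spread between parental cultures is unknown. The table names carry library numbers in which reporter culture 1 and the parental culture fall in 1 run of numbers and reporter culture 2 in another. The offset within the shared run was 0.37, and that across runs was 0.32.

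The whole distribution of chromosome 8 genes was displaced, not a subset of it. The middle 50% of members lay between 0.07 and 0.61 in culture 1 and between 0.06 and 0.58 in culture 2, against -0.30 to 0.21 and -0.28 to 0.25 on the other autosomes. From the 5th to the 95th percentile, the distance between the chromosome 8 distribution and that of the other autosomes stayed within 0.28 to 0.40 in culture 1 and 0.25 to 0.35 in culture 2. The spread of single genes was alike, with an SD of 0.455 and 0.467 among members, against 0.451 and 0.486 among rows of the other autosomes. Ratios were above 0 for 327 members (79.0%) in culture 1 and 331 (80.0%) in culture 2, against 44.5% and 49.2% of rows on the other autosomes. They were above 0 in both cultures for 288 members (69.6%), against 28.5% of rows on the other autosomes, where single chromosomes ranged from 22.9% to 33.8%. They were below 0 in both for 44 members (10.6%), against 34.7% elsewhere. The remaining 82 members had ratios of opposite sign in the 2 cultures.

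**Figure D2:**
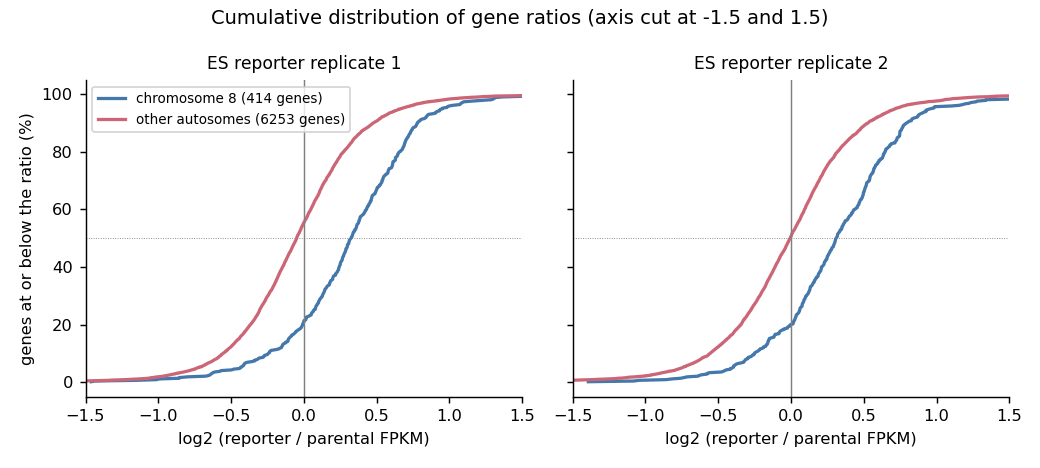
Cumulative share of genes (y axis, percent) at or below each log2 ratio of reporter to parental FPKM (x axis), for the 414 chromosome 8 genes (blue) and the 6253 genes of the other autosomes (red) in each reporter culture. The blue curve lies to the right of the red one by 0.37 and 0.32 at the median.

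The displacement was many small differences. Members at least 1.5-fold higher in both reporter cultures numbered 50 (12.1%), against 2.86% of rows on the other autosomes, and members at least 1.5-fold lower numbered 6 (1.45%), against 2.97%. At 2-fold, 5 members were higher in both (1.21%), against 0.720% elsewhere, and 1 was lower. Single genes also varied between the reporter cultures. The log2 ratio of culture 2 to culture 1 had an SD of 0.473 over the members and a median absolute value of 0.27. Between the technical runs of culture 1 the SD was 0.118.

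In levels, the median member had 24.1, 23.7 and 25.04 FPKM in the reporter libraries, against 20.4 FPKM in the parental library. Over rows of the other autosomes the medians were 20.4, 20.6 and 21.7 FPKM in the reporter libraries, against 21.2 FPKM in the parental library. Chromosome 8 members made up 5.68%, 5.65% and 6.09% of the summed autosomal FPKM of these rows, short RNA genes left out, in the reporter libraries, against 4.52% in the parental library.

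The offset ran along most of the chromosome and was smallest in the first 10 Mb. In windows of 10 Mb with at least 5 members, all 13 windows of chromosome 8 had medians above 0 in both cultures. Of the other autosomes' windows, 33.8% were above 0 in culture 1 and 46.4% in culture 2. On chromosome 8, 12 windows were above 0.2 in both. None of the 222 windows of the other autosomes passed 0.2 in both cultures. The exception on chromosome 8 was the first window, from 0 to 10 Mb, whose 19 members had medians of 0.13 and 0.12. The median over windows of the other autosomes was -0.04 in culture 1 and -0.01 in culture 2. Of the 19 members, 10 were above 0 in both cultures, against 28.5% of rows on the other autosomes. The neighbouring window from 10 to 20 Mb had medians of 0.56 and 0.51, and 0.51 was the highest in culture 2. The highest in culture 1 was 0.74, in the window from 50 to 60 Mb with 5 members, where culture 2 had 0.35. For windows of the other autosomes, the 5th to 95th percentiles were -0.25 to 0.14 in culture 1 and -0.25 to 0.15 in culture 2. The first window of chromosome 8 lay within both ranges. With members cut by position into 3 equal groups, the medians were 0.37 and 0.26 in the proximal 138, 0.33 and 0.34 in the middle 138, and 0.28 and 0.32 in the distal 138.

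**Figure D3:**
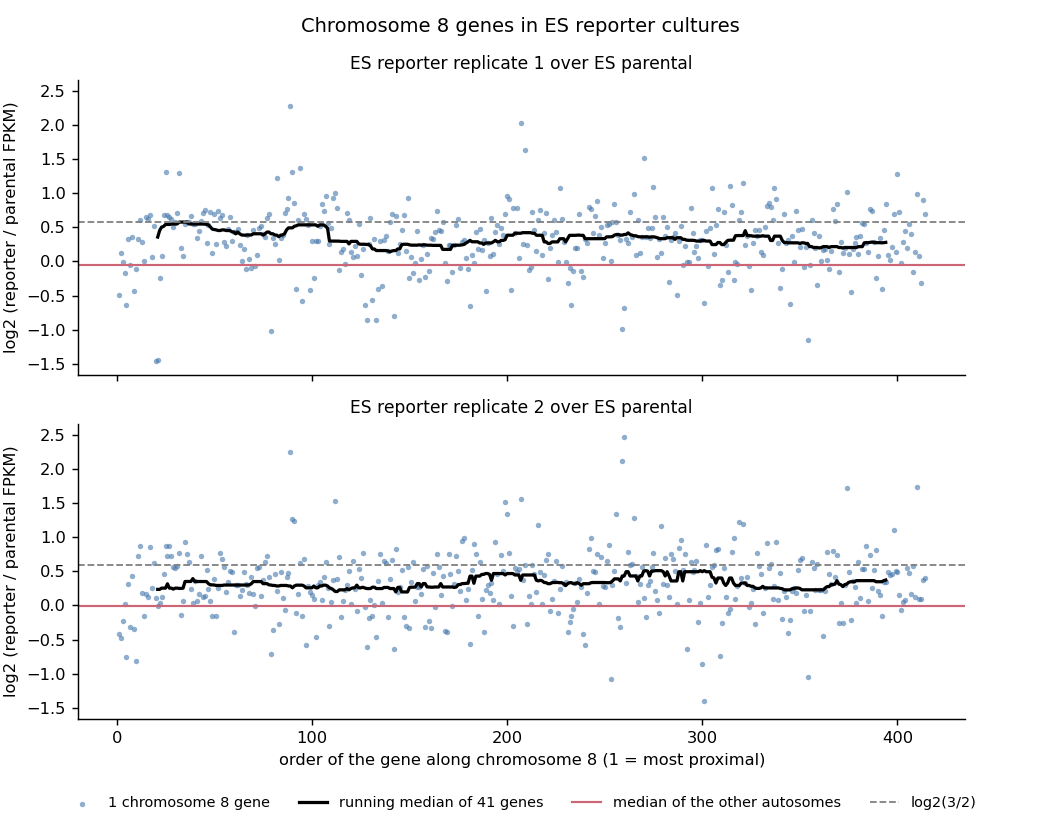
Log2 ratio of reporter to parental FPKM (y axis) of each chromosome 8 gene, in order along the chromosome from the centromere (x axis), in reporter culture 1 (top) and culture 2 (bottom), with a running median over 41 genes (black), the median of the other autosomes (red) and log2(3/2) (dashed). The running median stays between 0.14 and 0.58 in culture 1 and between 0.20 and 0.51 in culture 2.

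At the proximal end, Arhgef18 was the first member (chr8:3393008-3456600, build mm10). It had 9.01, 9.05 and 9.47 FPKM in the reporter libraries, against 12.6 FPKM in the parental library, so this gene was lower in both reporter cultures. The last member was Itgb1, the beta 1 integrin (mm10 chromosome 8, ending at base 128733579). It had 71.1, 70.2 and 57.6 FPKM in the reporter libraries, against 43.7 FPKM in the parental library.

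The offset was present at every level of expression and gene size. Across quartiles of mean ES FPKM, from the lowest to the highest, it was 0.30, 0.39, 0.45 and 0.35 in culture 1 and 0.21, 0.30, 0.42 and 0.33 in culture 2. Across 3 groups of genomic span, from short to long, it was 0.34, 0.39 and 0.42 in culture 1 and 0.34, 0.30 and 0.32 in culture 2. The median GC content of the longest transcript was 51.6% among members, against 49.6% on the other autosomes. With ratios centred within bins of GC content the offset was 0.38 and 0.31.

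The same measure was taken between libraries the rule did not contrast. Between the reporter cultures of the ES line, culture 2 over culture 1, chromosome 8 stood at -0.02 relative to the other autosomes and ranked 14 of 19. Chromosome 8 was picked for similar ratios of these cultures to the same parental library. A small value between them follows from that and is no separate evidence. In NMuMG, reporter over parental cultures gave -0.11 for replicate 1 and -0.05 for replicate 2, over 387 members with at least 1 FPKM in all 4 NMuMG libraries. These placed chromosome 8 at rank 17 and 15 of the 19 autosomes. No positive offset of chromosome 8 accompanied the reporter in NMuMG, and the difference between the lines was not tested. In the same NMuMG pairs, chromosome 12 stood at -0.29 and -0.30 and chromosome 15 at 0.29 and 0.31.

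**Figure D4:**
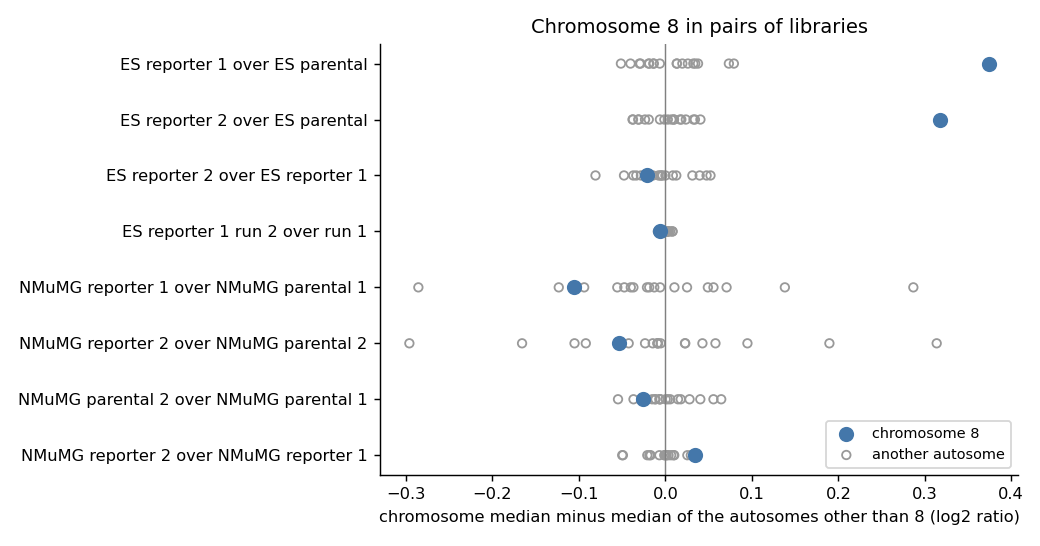
Median log2 ratio of each autosome minus that of the autosomes other than 8 (x axis) in 8 pairs of libraries, with chromosome 8 as a filled blue point and each other autosome as an open grey one. Chromosome 8 lies at 0.37 and 0.32 in ES reporter over ES parental cultures, and between -0.11 and 0.03 in the other pairs. The pair of ES reporter cultures is no separate evidence, since chromosome 8 was picked for the ratios of both.

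Each ES culture was also set over cultures of the other cell lines. Relative to NMuMG parental cultures, over 378 members, chromosome 8 stood at 0.51 in ES reporter culture 1 and 0.45 in culture 2, rank 1 of 19 in both, against 0.11 and rank 7 in the ES parental culture. Relative to the NIH3T3 parental culture, a fibroblast line with no transgene, it stood at 0.29 and 0.22 in the ES reporter cultures, ranks 3 and 4, against -0.12 and rank 13 in the ES parental culture. Over a shared denominator, reporter and parental offsets differ by nearly the same ES ratio for which the chromosome was picked. Setting them against each other is therefore no separate evidence. In both reporter cultures the highest other autosome was chromosome 13, at 0.44 and 0.30 relative to NMuMG and 0.51 and 0.41 relative to NIH3T3. Cell lines differ in gene expression and in karyotype, so the levels of these offsets carry both.

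Genes were then taken by role, from lists of chromosome 8 genes chosen with earlier results of these data known. Counts are of members above 0 in both reporter cultures, to be read against 69.6% of all members and 28.5% of rows on other autosomes.

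Replication and cell cycle genes had 18 of 23 members above 0 in both cultures and none below 0 in both, with medians of 0.41 and 0.55. Fanca, a protein of the Fanconi anaemia pathway of DNA crosslink repair, had log2 ratios of 0.77 and 0.75. Rfwd3, a ubiquitin ligase of the same pathway, had 0.91 and 0.93. Cdt1, which loads the MCM helicase at origins, had 82.0, 82.5 and 82.3 FPKM in the reporter libraries, against 68.0 FPKM in the parental library. E2f4, a transcription factor that binds pocket proteins, had 122, 131 and 135 FPKM in the reporter libraries, against 95.1 FPKM in the parental library. Tfdp1, the dimer partner of E2F factors, had 94.2, 94.3 and 74.5 FPKM in the reporter libraries, against 81.9 FPKM in the parental library, so the parental level lay between the reporter cultures.

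Chromatin and transcription factor genes had 17 of 22 members above 0 in both cultures and none below 0 in both, with medians of 0.34 and 0.31. Hmgb2, a DNA-bending chromatin protein, had 244, 250 and 200 FPKM in the reporter libraries, against 167 FPKM in the parental library. Ier2, an immediate early gene, had 101, 99.6 and 148 FPKM in the reporter libraries, against 65.6 FPKM in the parental library. Ash2l, a core subunit of histone H3 methyltransferase complexes, had 175, 179 and 207 FPKM in the reporter libraries, against 177 FPKM in the parental library, so only culture 2 lay apart from it. Cfdp1, a chromatin-associated protein, had log2 ratios of 0.69 and 0.21.

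Genes of protein folding, trafficking and turnover had 20 of 27 members above 0 in both cultures, with medians of 0.31 and 0.41. Lamp1, a lysosomal membrane protein, had 212, 209 and 193 FPKM in the reporter libraries, against 129 FPKM in the parental library. Psmd7, a subunit of the proteasome lid, had 168, 165 and 173 FPKM in the reporter libraries, against 175 FPKM in the parental library. Calr, the chaperone calreticulin, had 272, 286 and 557 FPKM in the reporter libraries, against 332 FPKM in the parental library. The reporter cultures thus lay on either side of the parental level for Calr. Asna1, which delivers tail-anchored proteins to the endoplasmic reticulum, had log2 ratios of 0.29 and 0.32.

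Mitochondrial and metabolic genes had 14 of 20 members above 0 in both cultures, with medians of 0.33 and 0.14. Cox4i1, a subunit of cytochrome c oxidase, had 836, 812 and 918 FPKM in the reporter libraries, against 739 FPKM in the parental library. Slc25a4, the ADP/ATP carrier, had 134, 132 and 178 FPKM in the reporter libraries, against 199 FPKM in the parental library, and was among 3 members of the list lower in both cultures. Nqo1, a quinone reductase, was the list's highest in both, with log2 ratios of 1.15 and 1.19. Prdx2, a peroxiredoxin, had 0.00 and -0.11, and Aprt, an enzyme of adenine salvage, had 0.36 and 0.03.

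Translation and ribosome assembly genes had 9 of 15 members above 0 in both cultures, 4 below 0 in both, and medians of 0.10 and 0.19. Aars, the alanyl-tRNA synthetase, had log2 ratios of 0.80 and 0.60. Eif4ebp1, a repressor of cap-dependent translation, had 0.46 and 0.16. Dhps, which starts the hypusine modification of eIF5A, had -0.64 and -0.15. Genes of mRNA processing and decay had 8 of 15 members above 0 in both, 1 below 0 in both, and medians of 0.20 and 0.20. Cnot1, the scaffold of the CCR4-NOT deadenylase, had 85.2, 86.4 and 63.2 FPKM in the reporter libraries, against 54.7 FPKM in the parental library. Lsm4, a subunit of the ring that binds U6 RNA and decaying mRNA, had 218, 220 and 229 FPKM in the reporter libraries, against 200.1 FPKM in the parental library. Nudt21, a cleavage factor of polyadenylation, had log2 ratios of 0.39 and -0.19, and Sf3b3, a splicing factor, had 0.09 and -0.12. Whether these lists differ from the other members was not tested.

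Adhesion and signalling genes had 7 of 14 members above 0 in both and 5 below 0 in both, with medians of 0.23 and -0.01. Klf2, a transcription factor of the naive pluripotency network, had 137, 135 and 155 FPKM in the reporter libraries, against 94.4 FPKM in the parental library. Cdh1, E-cadherin, had 73.2, 73.7 and 74.6 FPKM in the reporter libraries, against 88.9 FPKM in the parental library, so it was lower in all 3 reporter libraries. Gab1, a docking protein of receptor tyrosine kinases, had log2 ratios of 0.10 and 0.09. The list named for the BMP pathway had 2 members of 6 listed genes. These members, Sall1 and Fgfr1, are not BMP ligands, BMP receptors or SMAD proteins. Sall1, a zinc-finger transcription factor, had 49.0, 50.8 and 63.2 FPKM in the reporter libraries, against 34.3 FPKM in the parental library, while Fgfr1, an FGF receptor, had 17.9, 19.5 and 10.5 FPKM in the reporter libraries, against 13.8 FPKM in the parental library. Smad1, a signal transducer of BMP receptors, lay under the minimum, with 8.42, 8.87 and 5.34 FPKM in the reporter libraries, against 3.76 FPKM in the parental library.

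The metallothioneins Mt1 and Mt2, small metal-binding proteins induced by zinc and stress, moved in opposite directions in the 2 reporter cultures. Mt1 had 89.9, 90.9 and 797 FPKM in the reporter libraries, against 144 FPKM in the parental library. Mt2 had 110, 113 and 958 FPKM in the reporter libraries, against 222 FPKM in the parental library. In culture 2 their log2 ratios of 2.46 and 2.11 were among the 3 highest of all members, beside that of Triml1.

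Subunits of protein complexes encoded on several chromosomes were also set side by side. These are the ratios for which chromosome 8 was picked, so the split is a description and no separate evidence. Ratios above 0 in both cultures were found for 69.6% of all members and 28.5% of rows on the other autosomes. Over 8 complexes, 15 of 19 chromosome 8 subunits were above 0 in both cultures, with medians of 0.24 and 0.25, against 9 of 35 subunits encoded elsewhere, with medians of -0.12 and -0.09. Of the 15, 2 are Junb and Jund, counted for AP-1, which adds no subunit encoded elsewhere. In GINS, the tetramer that activates the replicative helicase, Gins2, Gins3 and Gins4 are on chromosome 8 and Gins1 is on chromosome 2. Gins4 had 80.9, 81.3 and 79.2 FPKM in the reporter libraries, against 69.1 FPKM in the parental library. Gins2 had 70.7, 69.5 and 71.6 FPKM in the reporter libraries, against 62.0 FPKM in the parental library. Gins3 was less abundant, with log2 ratios of 0.49 and 0.57. Gins1 had 51.9, 48.5 and 45.6 FPKM in the reporter libraries, against 63.1 FPKM in the parental library. The 3 chromosome 8 subunits were thus higher, and Gins1 lower, in every reporter library.

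In shelterin, which protects telomeres, the chromosome 8 subunits Terf2, Acd and Terf2ip had log2 ratios of 0.61, 0.23 and 0.00 in culture 1 and 1.22, 0.75 and 0.26 in culture 2. The others were Terf1 on chromosome 1 at 0.06 and -0.37, Tinf2 on chromosome 14 at -0.28 and 0.09, and Pot1a on chromosome 6 at 0.17 and 0.04. In the UPF group of nonsense-mediated mRNA decay, Upf3a had 0.58 and 0.76 and Upf1 had -0.35 and 0.03, both on chromosome 8. Upf2 on chromosome 2 had -0.29 and -0.53, and Upf3b on the X chromosome had 0.02 and -0.62. In the anaphase-promoting complex, Cdc16 had 0.55 and 0.93, while the 12 subunits encoded elsewhere had medians of -0.21 and -0.12 and 1 of them was above 0 in both cultures. Anapc10, another subunit on chromosome 8, was just under the minimum and had 0.13 and 0.05. The Golgi tethering complex COG had 2 of 3 chromosome 8 subunits above 0 in both cultures, against 3 of 5 elsewhere, with culture 2 medians of 0.25 on chromosome 8, against 0.21 elsewhere. Junb and Jund, counted for AP-1, have no partner encoded elsewhere that passed the minimum, so 7 complexes can be compared.

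**Figure D5:**
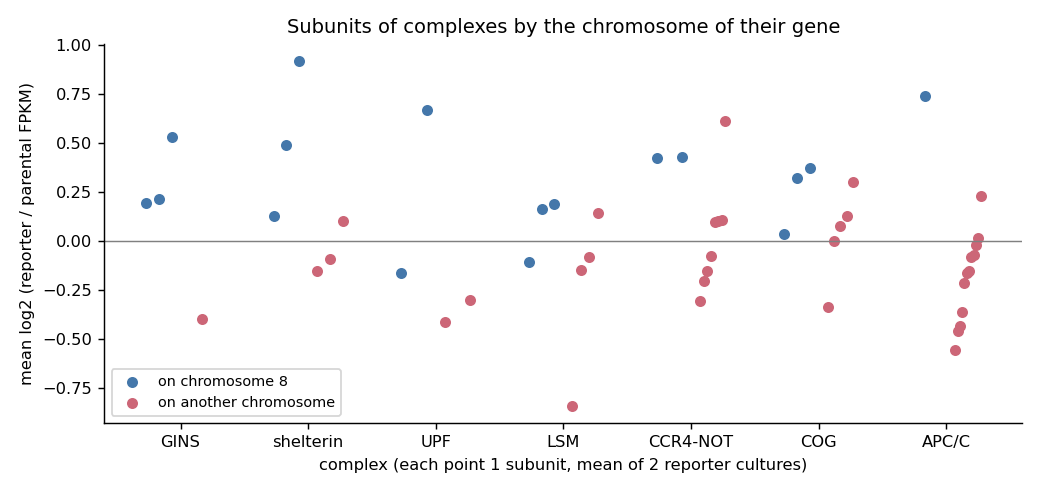
Mean log2 ratio of reporter to parental FPKM over both reporter cultures (y axis) of each subunit of 7 complexes (x axis), with subunits encoded on chromosome 8 in blue, left, and those encoded elsewhere in red, right. In GINS the 3 blue points are above 0 and the red point, Gins1, is at -0.40.

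The members farthest from the bulk were described by the values that ranked them. Triml1 had 37.5, 39.6 and 37.5 FPKM in the reporter libraries, against 7.94 FPKM in the parental library. Triml2 had 78.1, 75.7 and 74.8 FPKM in the reporter libraries, against 31.02 FPKM in the parental library. Triml1, Triml2 and Zfp42 are consecutive members along the chromosome, and all 3 were near 0 in NMuMG, where the highest value was 0.636 FPKM. Cyba, a subunit of the NADPH oxidase, had 24.9, 24.3 and 39.9 FPKM in the reporter libraries, against 12.1 FPKM in the parental library. Irf2bp2, a transcriptional corepressor, had 11.7, 11.7 and 19.7 FPKM in the reporter libraries, against 5.91 FPKM in the parental library. Mir1199 is a short RNA row whose 2 technical runs of 1 culture were 196 and 59.2 FPKM, so its ratio is uncertain. At the other end, Plcg2, a phospholipase C, had 5.97, 6.45 and 6.67 FPKM in the reporter libraries, against 13.8 FPKM in the parental library. Slc12a4, a potassium-chloride cotransporter, had log2 ratios of -0.61 and -1.39. Dusp4, a phosphatase of MAP kinases, had -1.01 and -0.71, Nr2c2ap had -0.86 and -0.61, and Col4a2, a collagen of basement membrane, had -1.44 and -0.01.

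Just inside the minimum, Fcho1 had 7.53, 7.46 and 6.78 FPKM in the reporter libraries, against 5.04 FPKM in the parental library, and Sugp2 had 6.11, 6.74 and 5.16 FPKM in the reporter libraries, against 5.11 FPKM in the parental library. Just outside it, Exoc3l had 10.3, 9.58 and 8.56 FPKM in the reporter libraries, against 4.87 FPKM in the parental library, and Anapc10 had 5.31, 5.55 and 5.12 FPKM in the reporter libraries, against 4.96 FPKM in the parental library. Among all members, 60 overlap another row of the tables, where reads can be split between genes, and 2 are short RNA rows.

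Single genes rarely passed a test. In a limma fit on log2(FPKM + 1) over 12320 rows, the comparison of ES reporter with ES parental cultures called 12 rows (0.0974%) at an adjusted p under 0.05, all of them lower in the reporter cultures, and none of the 414 members. The direction and the count depended on the setting. With a pseudocount of 0.1, 7 of 13 rows called were higher, and no row was called with quantile normalization or with the replicate block. At an unadjusted p under 0.05 there were 76 of 414 members, against 1107 of all 12320 rows. Of these, 69 members and 519 rows were higher in the reporter cultures. Since chromosome 8 was picked for this contrast, nothing is read from the members' count. The median limma change was 0.32 over members, against -0.02 over all other rows. The parental group has 1 culture, so its spread was taken from the other groups, with 3 residual degrees of freedom.

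In NMuMG, whose libraries the rule did not use, the same fit called 26 rows (0.211%), of which 6 were higher (0.0487%) and 20 lower (0.162%) in reporter cultures. No member was called higher and 2 were called lower, and 9 of 414 members were at an unadjusted p under 0.05, against 639 of all 12320 rows. Ctu2, which modifies tRNA wobble bases, had 0 and 0 FPKM in the reporter libraries, against 6.58 and 8.82 FPKM in the parental libraries (limma adjusted p = 0.0172). Atp11a, a lipid flippase, had 0.169 and 0.0163 FPKM in the reporter libraries, against 16.2 and 8.54 FPKM in the parental libraries (limma adjusted p = 0.0326). Both rows overlap another row of the tables, where reads can be split between genes, so a listed 0 may not mean absent RNA. No member had an estimate marked as failed. Both calls were lost when NMuMG reporter replicate 1, NMuMG reporter replicate 2 or NMuMG parental replicate 2 was left out, and members called were 3 without NMuMG parental replicate 1. With the replicate block, which fits the replicate number as a term, 1 member and 8 rows were called. The median limma change was -0.12 over members, against -0.02 over all other rows. In ES cells, leaving out a reporter culture left 1 reporter and 1 parental culture. The spread then came from NMuMG alone, so nothing is read from the counts of those fits.

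The labelled cell type was checked with marker genes. All 10 ES cell markers were present in every ES library, with summed levels of 5151, 5424 and 5637 FPKM in the reporter libraries, against 4363 FPKM in the parental library. Of these, 9 were higher in both reporter cultures. They include Zfp42, itself a member, and genes of other chromosomes. Klf4 had log2 ratios of 2.46 and 1.52, Esrrb 1.49 and 1.65, and Nanog 0.58 and 1.40. Others were nearer to no change, such as Pou5f1 with 0.10 and 0.14, Sox2 with 0.17 and 0.05, and Utf1 with 0.07 and 0.08. Tdgf1 had opposite signs, 0.62 and -0.78. The 7 markers of the 2-cell-like state, a rare state in ES culture marked by Zscan4 genes, were lower in both reporter cultures, and summed to 2.14, 1.72 and 6.64 FPKM in the reporter libraries, against 144 FPKM in the parental library. Primitive endoderm markers summed to 5.18, 4.87 and 12.5 FPKM in the reporter libraries, against 18.3 FPKM in the parental library, and 5 of 6 were lower in both cultures. Trophoblast markers summed to 6.94, 8.20 and 12.5 FPKM in the reporter libraries, against 20.4 FPKM in the parental library, and 3 of 4 were lower in both cultures. Feeder fibroblast markers summed to 3.13, 2.77 and 2.81 FPKM in the reporter libraries, against 4.68 FPKM in the parental library. Of these 6 markers 1 was lower in both cultures, Thy1, which held 4.28 FPKM of the parental sum. Neural markers, mainly Tubb3, itself a member, summed to 33.2, 33.6 and 68.2 FPKM in the reporter libraries, against 42.2 FPKM in the parental library. Mesoderm markers summed to 1.54, 1.31 and 1.93 FPKM, against 1.42 FPKM. NMuMG epithelium markers summed to 13.8, 12.6 and 31.2 FPKM, against 24.2 FPKM. Each of these lists was above the parental sum in culture 2. The part of these cell states in the chromosome 8 ratios was not tested, and in bulk RNA fewer cells of a type and less RNA per cell cannot be told apart.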

How the data were processed

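RNA was extracted with RNeasy columns and libraries were made with the NEBNext Ultra kit, per the labels' protocols. The authors' deposited gene tables hold FPKM values, 1 table per library, made with bcl2fastq 1.8.4, TopHat and Cufflinks on the mm10 build, per the submitters' processing notes. Versions of TopHat and Cufflinks, the annotation and the strand setting are not given in the sources used here. No read counts were used, so depth is unknown and no counting interval is given. Summed FPKM ran from 429687 to 514966 over the 9 tables used. Another 2 NIH3T3 tables could not be matched to a sample and were not used here.

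Tables were joined on symbol and locus, which kept 23847 of 23849 rows per table. Starts in the files count from 0 and were raised by 1. Log2 ratios for the chromosome comparison used FPKM with no pseudocount, since members have at least 5 FPKM. Per-gene changes were estimated by limma (version 3.58.1, under R 4.3.3) from log2(FPKM + 1), letting the variance follow mean level, over 7 replicates of ES and NMuMG cultures and rows of at least 1 FPKM in 2 of them, two-sided, with Benjamini-Hochberg adjustment over all rows. Replicates are samples the labels separate. Nothing says that they are independent cultures beyond the names Bio 1 and Bio 2, so p-values measure the spread between these samples.

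The members, the lists and the tests were chosen with earlier results of these data known. Named genes are the 4 most abundant members of each list, all subunits of GINS, shelterin and UPF, the 5 highest and 5 lowest members of like sign in both cultures, the first and last members and those beside the minimum, of which 2 are not reported here. The others named were chosen after their values were seen. They are Cdc16, Zfp42, Fanca, Rfwd3, Nqo1, Aars, Dhps, Smad1, Ctu2, Atp11a, Klf4, Esrrb, Nanog, Pou5f1, Sox2, Utf1, Tdgf1, Thy1, Tubb3, Junb and Jund. Samples of the same replicate number deviated together in the fit (correlations of 0.364 to 0.447 over 3 pairs of groups), and the runs of library numbers in the table names follow these numbers, so fits with the replicate number as a block are given where they change a count. Alternatives were other minimums, pseudocounts, normalization, a replicate block and leaving out each replicate. Centring by GC content and leaving out the first 10 Mb were added after seeing the data. Other steps ran in Python 3.11.15 using pandas 2.3.3, NumPy 2.4.6 and matplotlib 3.10.9.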

Additional observations from a re-analysis of the deposited data

Results flagged for a closer look

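The offset of chromosome 8 from the other autosomes had opposite signs in the ES and NMuMG lines under the same contrast of reporter with parental cultures. It was 0.374 and 0.318 in ES reporter cultures 1 and 2, and -0.106 and -0.0536 in NMuMG replicates 1 and 2. The other autosomes in NMuMG ran from -0.286 to 0.287 in replicate 1 and from -0.296 to 0.314 in replicate 2. The NMuMG values of chromosome 8 lay inside these ranges. The difference between the lines was not tested, since chromosome 8 was picked for its ratios in the ES cultures.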

How the results depend on the processing

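The chromosome 8 offset was above 0 under all 42 alternatives, from 0.305 to 0.409, and 41 stayed within 0.04 of the reported value. The exception was reporter culture 2 with no minimum, at 0.368. Alternative values numbered 324 for 54 named chromosome 8 rows, among them Anapc10 and Exoc3l, which are not members. Of these values 10 changed sign, the largest at 0.0693, and none of those rows was called in the ES comparison. The mean offset runs between 0.32 and 0.37 when a reporter culture is left out. Counts from limma depended on the setting, and the cause was not tested. ES rows called were 12 as reported, 82 with a pseudocount of 5, 972 with no minimum, 3 with a minimum of 5 FPKM, 0 with quantile normalization, 0 with the replicate block, and 183 to 190 with a reporter culture left out. ES members called were 0 as reported, 2 with a pseudocount of 5 and 3 with no minimum. Without a reporter culture the ES spread came from NMuMG alone. Nothing is therefore read from the ES rows called in those fits, and their ES member counts are not given. NMuMG rows called were 26 as reported, 58 with a pseudocount of 0.1, 8 with a pseudocount of 5, 15 with a minimum of 5 FPKM, 10 with quantile normalization, 8 with the replicate block, and 0 to 30 with a culture left out. NMuMG members called were 2 as reported, 0 with a pseudocount of 5, 0 with no minimum, 1 with quantile normalization, 1 with the replicate block, and 0 to 3 with a culture left out. Leaving out the ES parental culture leaves no comparison. The single parental library and unknown depth limit every ES value.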
